A study of Mus musculus with 105 samples.

Results

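The spindle checkpoint genes described here are Bub1, Bub1b, Bub3, Mad1l1, Mad2l1 and Ttk, taken as a listed set of 6 among the 20756 genes with footprint and mRNA values. All 6 are present in each of the 3 deposited tables. The checkpoint holds a dividing cell in metaphase until every chromosome is attached to the spindle. Its kinase TTK (also called MPS1) marks unattached kinetochores, where BUB1 and BUB3 gather. There MAD1 (encoded by Mad1l1) converts MAD2 (Mad2l1) into an active form. MAD2 then joins BUBR1 (Bub1b), BUB3 and CDC20 in the mitotic checkpoint complex, which blocks the anaphase-promoting complex. A growing oocyte stores mRNA and its transcription is silent by full size, so protein made during meiotic maturation comes from stored mRNA through changes in translation and poly(A) tails.

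The study measured ribosome footprints (Ribo-seq, RNA fragments protected by ribosomes), mRNA with a poly(A) tail (by Smart-seq2) and the length of those tails. Footprints came from 20 single metaphase II (MII) oocytes and 18 single full-grown oocytes (FGO, before meiotic resumption), all of wild-type (WT) genotype. Btg4 knockout (KO) MII oocytes were set against Btg4 heterozygous (Het) MII oocytes, with 3 KO and 3 Het footprint libraries and 2 KO and 2 Het mRNA libraries. BTG4 is an adaptor that brings the CCR4-NOT deadenylase to maternal mRNAs. Tails came from 2 Btg4 KO, 1 Btg4 Het and 1 WT MII library and from 1 WT FGO library, which carries the label SN that the single FGO do not. The protocols name C57BL/6 females, 8 or 5 weeks old, that had received 5 IU each of the gonadotropins PMSG and hCG; which age belongs to which group, the altered part of Btg4 and the number of oocytes per Btg4 library are not given in the labels. The Btg4 Het oocytes carry 1 altered allele, so the comparison is not with WT.

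Values are FPKM, reads per gene length and library total, so levels can be set side by side between genes, and no spike-in is named. A value is thus relative to its library, and a difference between stages or genotypes does not give the amount per oocyte. FPKM summed to 144559 to 598538 per MII oocyte and 76465 to 677515 per FGO, to 928837 to 994725 in KO and 862865 to 1154520 in Het footprints, and to 431002 to 458732 in KO and 396616 to 435953 in Het mRNA. Footprints of the targeted gene Btg4 were 1148, 971 and 907 FPKM in KO libraries, against 7009, 6346 and 6134 FPKM in Het libraries (log2 change −2.69, SE 0.23, limma adjusted p = 0.00654). Its mRNA was 1754 and 2345 FPKM in KO, against 3293 and 4774 FPKM in Het (limma adjusted p = 0.0889). All 10 oocyte markers checked were detected in every group with FPKM values. No label names the animals, so every p-value reflects the spread among libraries, which may be technical.

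In single oocytes the checkpoint genes parted in opposite directions. Footprints of Bub1b and Mad2l1 were far higher in MII oocytes than in FGO, those of Bub1 and Mad1l1 were lower, and those of Bub3 and Ttk differed by less than 2-fold. Each stage counts as 1 sample, because no animals are named, so these differences were not tested. Against a 2-fold limit, 2 of the 6 genes were higher in MII, where 27.9% of the 8788 genes averaging 1 FPKM or more were, and 2 of 6 were lower, where 31.3% were. The median log2 ratio of the 6 genes was −0.49, and that of all genes −0.15.

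Bub1b, the BUBR1 subunit of the mitotic checkpoint complex, had 163 FPKM in the lowest MII oocyte, 854 FPKM in the median one and 1296 FPKM in the highest, against 0, 8.34 and 40.0 FPKM in FGO. Every MII oocyte lay above every FGO, an arrangement that 2.18% of genes showed. The mean was 776 ± 357 FPKM in MII oocytes (SD, n = 20 oocytes) and 11.8 ± 12.0 FPKM in FGO (SD, n = 18 oocytes), a log2 ratio of 5.92 on the scale of mean FPKM + 1. That ratio stood at percentile 99.6 of all genes.

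Mad2l1, the MAD2 subunit of the same complex, had 68.0 FPKM in the lowest MII oocyte, 337 FPKM in the median one and 672 FPKM in the highest. In FGO the same 3 values were 4.11, 25.7 and 53.4 FPKM. Its stages did not overlap either. The means were 331 ± 174 FPKM in MII and 26.0 ± 14.8 FPKM in FGO, a log2 ratio of 3.62 at percentile 96.3. The lowest 2 MII values, 68.0 and 88.1 FPKM, came from oocytes 13 and 14, which with oocytes 15 and 16 had the 4 smallest FPKM sums of the MII oocytes.

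Bub1, the kinase that docks at kinetochores with BUB3, went the other way. Its footprints were 0, 2.65 and 11.5 FPKM in the lowest, median and highest MII oocyte, against 1.36, 10.0 and 37.7 FPKM in FGO. The stages overlapped, with 15 of 20 MII oocytes and 18 of 18 FGO above 0, and MII was the higher in 12.8% of all pairs of 1 MII oocyte and 1 FGO. The means were 3.20 ± 3.23 FPKM in MII and 13.1 ± 10.1 FPKM in FGO, a log2 ratio of −1.75. Low values could be read back as whole reads, which gave 66 Bub1 footprints over all MII oocytes and 664 over all FGO. Pooled, these amount to 3.71 FPKM in MII (95% exact Poisson interval 2.87 to 4.72) and 13.3 FPKM in FGO (12.3 to 14.3), intervals that cover counting error only.

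Mad1l1, the template for MAD2 conversion, was the gene with the lowest mean of the 6 at both stages. The lowest, median and highest values were 0, 0 and 9.14 FPKM in MII and 0, 3.42 and 16.2 FPKM in FGO. It was above 0 in 8 of 20 MII oocytes and 15 of 18 FGO. Its means were 2.05 ± 3.20 FPKM in MII and 5.31 ± 5.15 FPKM in FGO, and its log2 ratio of −1.05 sat at the edge of the 2-fold limit: it was inside that limit without MII oocytes 2 and 4, and at −0.93 with libraries scaled to equal FPKM sums.

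Bub3, which binds both BUB1 and BUBR1, and Ttk, the kinase at the top of the pathway, stayed nearer to the median of all genes as deposited. Bub3 had 0, 6.33 and 32.1 FPKM in the lowest, median and highest MII oocyte, against 0, 14.3 and 37.0 FPKM in FGO, with means of 10.4 ± 11.2 FPKM and 15.2 ± 9.71 FPKM and a log2 ratio of −0.51. Recovered reads gave 99 Bub3 footprints in MII, 10.7 FPKM pooled (95% interval 8.66 to 13.0), against 393 in FGO, 15.0 FPKM (13.6 to 16.6). MII oocyte 3 held 30 of the 99 reads, and most nonzero Bub3 counts in MII were even numbers. These intervals take each read as an independent count, which was not tested. Ttk had 0, 8.22 and 24.7 FPKM in MII, against 2.42, 11.4 and 36.2 FPKM in FGO, with means of 9.48 ± 6.89 FPKM in MII and 13.5 ± 9.05 FPKM in FGO and a log2 ratio of −0.47. Both genes overlapped widely between stages. The size of these smaller ratios depends on the scaling: with each oocyte scaled to its median over genes, the median of all genes moved to −0.95, and Bub3 and Ttk to −1.44 and −1.56. Relative to the median of all genes, Bub1 stood at −1.59 as deposited and −1.52 with median scaling, Bub1b at 6.07 and 6.13, and Mad2l1 at 3.77 and 3.23. Mad1l1 stood at −0.90 as deposited and −0.48 with median scaling, where Bub3 was at −0.49 and Ttk at −0.61. With that scaling Mad1l1 was thus no farther from the median of all genes than Bub3 or Ttk.

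**Figure D1:**
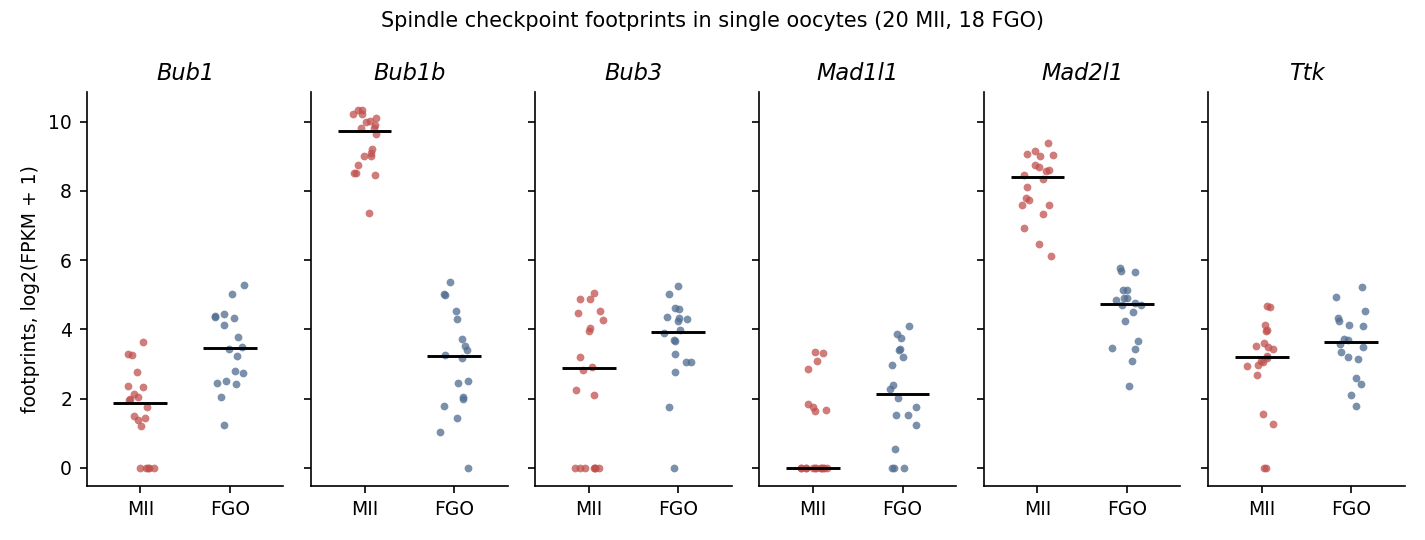
Footprints of the 6 spindle checkpoint genes in single oocytes, as log2(FPKM + 1) on the vertical axis, with 20 MII oocytes left and 18 FGO right in each panel; points are oocytes and black lines medians. All MII oocytes lie above all FGO for Bub1b and Mad2l1, while the stages overlap for the other 4 genes.

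The order of the genes by mean level differed between stages. In MII oocytes it was Bub1b, Mad2l1, Bub3, Ttk, Bub1 and Mad1l1. Bub1b exceeded Mad2l1 in 18 of 20 MII oocytes and Mad2l1 exceeded Bub3 in 20 of 20, while Bub3 exceeded Ttk in 8 of 20, so those neighbours do not differ beyond their spread. In FGO the order was Mad2l1, Bub3, Ttk, Bub1, Bub1b and Mad1l1, with Mad2l1 above Bub3 in 15 of 18 FGO, Bub3 above Ttk in 8 of 18 and Ttk above Bub1 in 10 of 18. Bub1b thus had the second lowest mean of the 6 in FGO and the highest in MII.

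Across FGO the 6 genes varied together with the FPKM sum of the oocyte. Spearman's rho between each gene and that sum was 0.657 to 0.843 (n = 18 FGO), and rho between Bub1 and Ttk was 0.851. FPKM is already divided by the library total, so its sum does not measure sequencing depth. Across MII oocytes (n = 20) rho with the FPKM sum was 0.777 for Mad2l1, 0.708 for Bub1b and 0.580 for Ttk, and 0.003 to 0.165 for the other 3; rho between Bub1b and Mad2l1 was 0.552. These points share the library total, and the correlations are descriptions without a test. MII oocytes 2 and 4 combined 8.50 and 11.5 FPKM of Bub1, 14.7 and 24.7 FPKM of Ttk, and 363 and 163 FPKM of Bub1b, the last being the lowest Bub1b value in MII. Without those oocytes the log2 ratio was −2.03 for Bub1 and 6.02 for Bub1b.

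Markers of other cells also moved with stage. Of 17 follicle-cell markers 12 were above 0 in at least 1 MII oocyte and 16 in at least 1 FGO. They summed to 70.7 to 227 FPKM in MII oocytes and 1.04 to 108 FPKM in FGO, with Has2 at 0 in all oocytes and Fst, Fshr, Krt8 and Tnfaip6 at 0 in all MII oocytes; By mean, 6 markers were higher in MII and 10 lower. Serpine2, chosen after its values were seen, averaged 120 FPKM in MII and 4.31 FPKM in FGO, and the other 16 markers summed to 0 to 40.0 FPKM in MII (median 18.3) and 0 to 104 FPKM in FGO (median 25.2). The 10 blood and immune markers, 6 of them above 0 in any MII oocyte and 10 in any FGO, summed to 0 to 166 FPKM in MII and 0 to 865 FPKM in FGO, and a hemoglobin gene was listed in 1 MII oocyte and 9 FGO. All 5 somatic proliferation markers, which oocytes express too, were detected at both stages, with sums of 157 to 917 FPKM in MII and 12.8 to 392 FPKM in FGO. Without the oocytes that listed a hemoglobin gene, the log2 ratios were 5.89 for Bub1b, 3.72 for Mad2l1 and −1.52 for Bub1. The part of the follicle-cell and proliferation markers in these differences was not tested.

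The genes whose footprints most resembled each checkpoint gene were sought over the same 38 oocytes among 2893 genes averaging 10 FPKM or more. For Bub1b they were Kif20a (Spearman's rho 0.972), Gm1070 (0.970) and Ccnb1, which encodes cyclin B1 (0.965). For Mad2l1 they were Cnn3 (0.937), Spin1 (0.936) and Cherp (0.933). For Bub1 they were Gyg (0.896), Sumo3 (0.877) and Ninj2 (0.860), and for Ttk Hsp90aa1 (0.855), Cct8 (0.832) and Nlrp9a (0.826). The likeness was weaker for Mad1l1, led by Os9 (0.702), and for Bub3, led by Ube2c (0.657). All genes share the stage and the FPKM sum of each oocyte.

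Among genes that act with the 6, Cdc20, the target bound by the mitotic checkpoint complex, averaged 168 ± 83.5 FPKM in MII oocytes and 3.15 ± 4.10 FPKM in FGO (log2 ratio 5.35). Mad2l1bp, whose product (p31comet) helps silence the checkpoint, averaged 64.2 ± 49.6 FPKM in MII and 0.930 ± 1.74 FPKM in FGO (5.08). In their list of effector, silencing and Spindly genes, 2 of 6 measured members were at least 2-fold higher in MII and 2 lower. In the kinetochore network that receives microtubules 3 of 9 were higher, led by Nuf2 (4.04) and Ndc80 (3.01), and 3 lower, among them Spc25 (−2.15). Of the kinases, shugoshins and partners 5 of 11 were higher, led by Cdca8 (3.83), Aurkc (3.36) and Sgo2a (3.28), and 1 was lower, Birc5 (−2.54). Of the anaphase-promoting complex and its partners 3 of 17 were higher, led by Anapc10 (4.49) and Cdc27 (3.46), and 6 lower, led by Fzr1 (−2.80). Over all genes 27.9% were higher and 31.3% lower, so nothing particular to these lists is read from their counts.

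In Btg4 KO MII oocytes Bub1 mRNA rose, Bub1 footprints were higher in every KO than in every Het library without passing the test, and Ttk mRNA rose by a smaller amount. Bub1b and Mad2l1, the genes with the most footprints, had a lower mean mRNA in KO than in Het, with no call in the unpaired fit. The mRNA values count mRNA with a poly(A) tail, and Bub1 had no tail value in any MII library. The part of tail length in these mRNA differences was not tested. For mRNA, 2 of 6 genes rose and none fell, where 18.9% of 8865 genes rose and 0.62% fell. The median log2 change of the 6 was 0.56 and that of all genes 0.14. The balance of calls depends on scaling, since 96.8% of all calls were higher in KO as deposited, 68.8% with libraries scaled to their medians and 61.3% with quantile normalization, and those scalings moved the median of all genes to −0.18 and −0.22.

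Bub1 mRNA was 43.7 and 37.9 FPKM in KO libraries, against 6.25 and 10.2 FPKM in Het libraries, and the genotypes did not overlap. KO lay above Het in both mRNA libraries for 4 of the 6 genes (Bub1, Ttk, Bub3 and Mad1l1), as for 38.9% of all genes tested. The means were 40.8 ± 4.08 FPKM in KO and 8.25 ± 2.83 FPKM in Het (SD, n = 2 each), which makes a log2 change of 2.21 (SE 0.35, limma adjusted p = 0.00413), and relative to the median of all genes it stood at 2.07, a value that median scaling made 2.02 and quantile normalization 2.08. It passed the test in all 11 alternatives, with limma adjusted p between 1.60e-05 and 0.0465.

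Bub1 footprints were 60.6, 58.1 and 48.0 FPKM in KO, against 16.7, 8.32 and 4.36 FPKM in Het. Every KO library lay above every Het library, as in 16.8% of the 8526 genes tested. The means were 55.6 ± 6.68 FPKM in KO and 9.80 ± 6.32 FPKM in Het (SD, n = 3 each), a log2 change of 2.55 (SE 0.55, 95% interval 1.25 to 3.85). The unadjusted limma p was 0.00243 and the adjusted p = 0.0588, so the change was not called. It was called without Het library 1 (limma adjusted p = 0.0439) and with equal FPKM sums (0.0395), out of a range of 0.0395 to 0.193 over 13 alternatives. Recovered reads gave 278 Bub1 footprints over the KO libraries, 54.9 FPKM pooled (95% exact Poisson interval 48.6 to 61.8), and 54 over the Het libraries, 12.1 FPKM (9.05 to 15.7). Het library 1 held 40 of those 54 reads, and without it the Het value was 6.61 FPKM (3.61 to 11.1).

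Ttk mRNA was 86.7 and 66.8 FPKM in KO, against 41.5 and 25.0 FPKM in Het, without overlap. The means were 76.7 ± 14.1 FPKM in KO and 33.3 ± 11.6 FPKM in Het (SD, n = 2 each), a log2 change of 1.21 (SE 0.35, limma adjusted p = 0.0436). The call held in 2 of 11 alternatives, over which the limma adjusted p ran from 0.0036 to 0.187; it was 0.187 without KO library 1, 0.0672 without KO library 2 and 0.185 without Het library 2. Ttk footprints were 21.9, 37.5 and 38.3 FPKM in KO and 29.7, 8.83 and 47.4 FPKM in Het, which overlapped (log2 0.42, SE 0.67, limma adjusted p = 0.788). Without Het library 2, the lowest, that change was −0.24.

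Bub3 mRNA was 120 and 92.9 FPKM in KO, against 55.6 and 61.3 FPKM in Het, without overlap and without a call (log2 0.85, SE 0.30, limma adjusted p = 0.0872). Its footprints were 32.3, 6.23 and 34.9 FPKM in KO and 21.9, 0 and 4.17 FPKM in Het (log2 2.06, SE 1.24, limma adjusted p = 0.439). The footprint values overlapped and rest on few reads, 63 over the KO libraries and 29 over the Het libraries, 27 of these 29 in Het library 1. The log2 change was 0.92 without Het library 2 and 3.17 without Het library 1. Mad1l1 was low in both assays, with 8.04 and 5.48 FPKM of mRNA in KO against 5.33 and 5.25 FPKM in Het (log2 0.28, SE 0.36, limma adjusted p = 0.611), a difference that took the opposite sign with median scaling (−0.055) and with quantile normalization (−0.12). Its footprints were 3.35, 3.31 and 2.28 FPKM in KO and 3.88, 20.3 and 3.32 FPKM in Het (log2 −0.96, SE 0.79, limma adjusted p = 0.602), and the high Het value is that of library 2, without which the footprint change was −0.22.

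Bub1b mRNA was 327 and 171 FPKM in KO, against 509 and 311 FPKM in Het, so the genotypes overlapped (log2 −0.75, SE 0.40, limma adjusted p = 0.224). Leaving out Het library 2 moved the log2 change to −1.11. With the replicate number as a block, the calls for Bub1b and Mad2l1 mRNA differed from the unpaired fit, as given in the last section. Bub1b footprints were 1710, 2969 and 2095 FPKM in KO and 3017, 3761 and 1973 FPKM in Het (log2 −0.36, SE 0.35, 95% interval −1.18 to 0.47, limma adjusted p = 0.621). No footprint value of the 6 placed every KO below every Het library, as 7.69% of genes did. Mad2l1 mRNA was 323 and 423 FPKM in KO, both below the 479 and 726 FPKM in Het, the 1 gene of the 6 with this arrangement, an arrangement that 22% of genes showed (log2 −0.67, SE 0.33, limma adjusted p = 0.194). Mad2l1 footprints were 1001, 1225 and 989 FPKM in KO and 1636, 1047 and 1292 FPKM in Het (log2 −0.29, SE 0.28, 95% interval −0.95 to 0.37, limma adjusted p = 0.620).

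**Figure D2:**
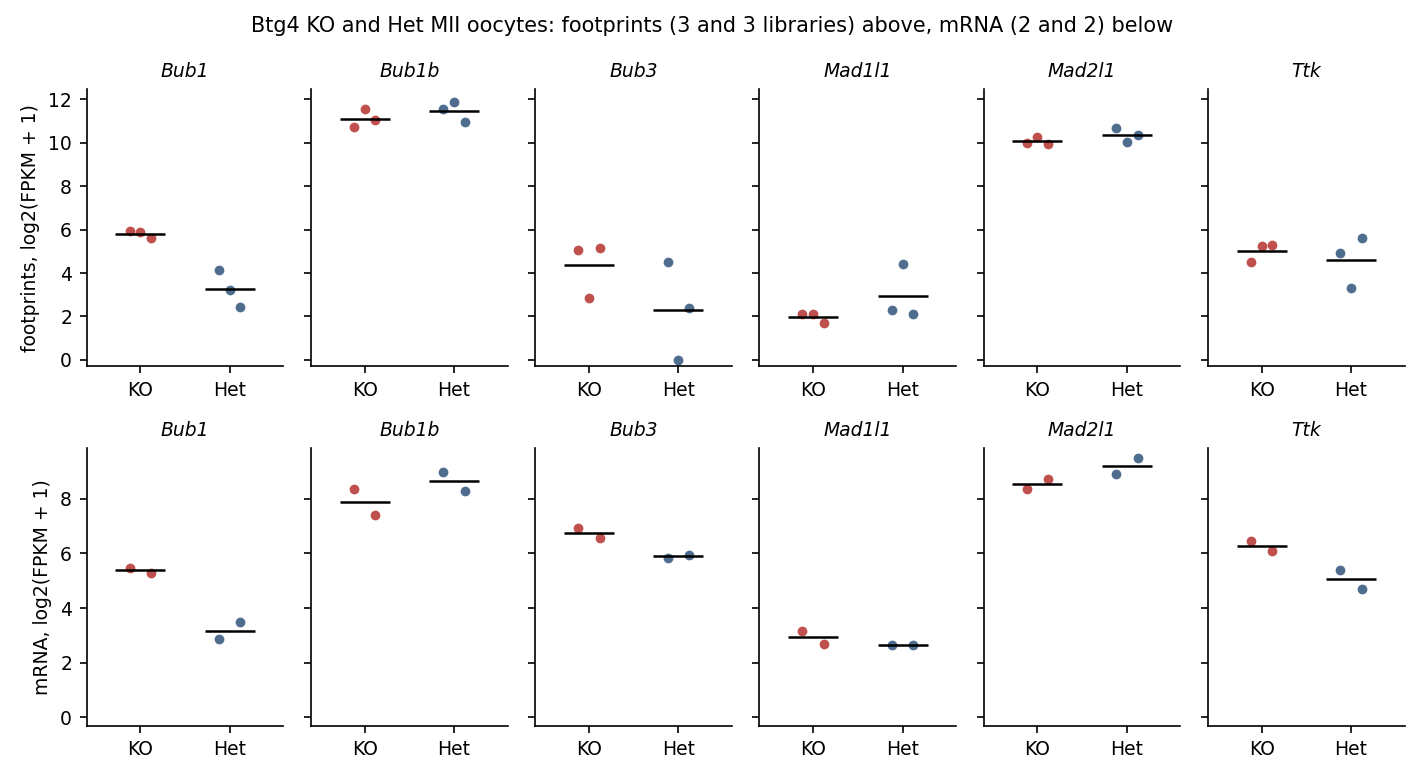
Footprints (upper row) and mRNA (lower row) of the 6 genes in Btg4 KO (left) and Het (right) MII oocytes, as log2(FPKM + 1); points are libraries and black lines their means. The KO points for Bub1 lie above the Het points in both assays, and those for Ttk, Bub3 and, narrowly, Mad1l1 do so in mRNA.

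By footprints, 0 of 6 genes were called in KO against Het, where 3.21% of 8526 genes rose and 0.328% fell by limma, and 1 of 6, Bub1, had an unadjusted limma p under 0.05, as did 18.2% of all genes tested. The SE of the log2 change ran from 0.28 for Mad2l1 to 1.24 for Bub3, so an absent call does not show that footprints did not differ. Footprint libraries of 1 genotype correlated at 0.699 to 0.815, and mRNA libraries at 0.958 to 0.966.

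Footprint efficiency, the change of footprints relative to mRNA, was the term for genotype by assay in 1 limma fit of all 10 libraries. None of the 6 genes was called by limma and none had an unadjusted p under 0.05. Of all 7382 genes 0.853% were called higher in KO and 0.447% lower, and 14.0% had an unadjusted p under 0.05. The log2 differences were 0.34 for Bub1, 0.39 for Bub1b, 0.38 for Mad2l1, 1.22 for Bub3, −0.80 for Ttk and −1.24 for Mad1l1, with limma adjusted p between 0.671 and 0.900. The value of Bub3 ran from 0.071 without Het footprint library 2 to 2.33 without Het footprint library 1.

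**Figure D3:**
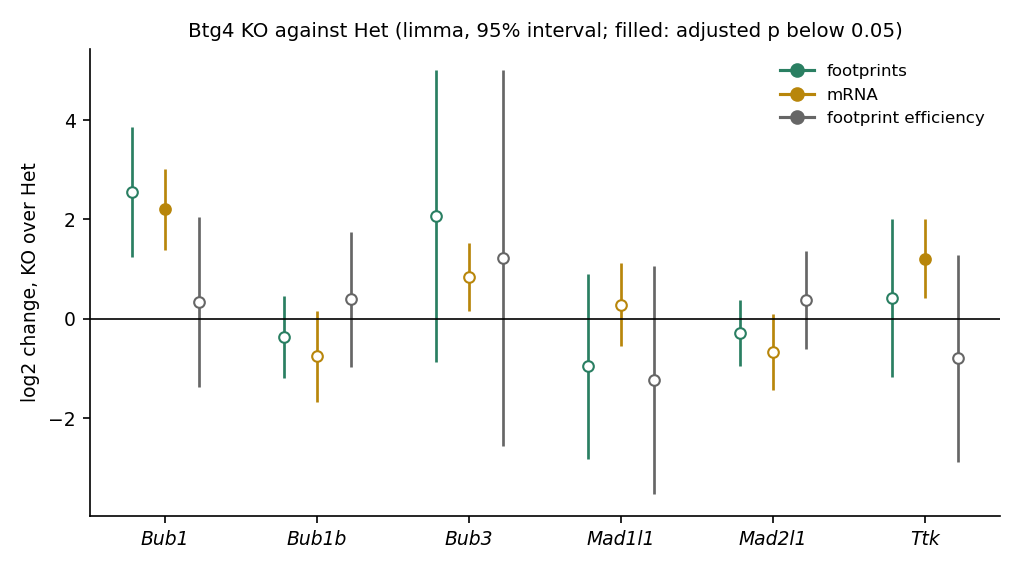
Log2 change of Btg4 KO over Het for footprints, mRNA and footprint efficiency of each gene, with 95% intervals from limma; filled points have an adjusted p below 0.05. Filled points appear for mRNA of Bub1 (2.21) and Ttk (1.21), and the footprint interval of Bub1 (1.25 to 3.85) lies above 0.

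Within a genotype the checkpoint genes differed widely in footprints per mRNA. The log2 ratio of mean footprint to mean mRNA FPKM was 3.18 in KO and 2.83 in Het for Bub1b, at percentiles 95.7 and 94.1 of 7382 genes. Mad2l1 followed at percentiles 75.6 in KO and 71.7 in Het, and Bub1 lay near the middle with 0.44 and 0.22 (52.7 and 49.9). Bub3 was low in both genotypes, at −2.08 in KO and −2.62 in Het (11.6 and 6.04). Ttk stood at −1.21 in KO and −0.21 in Het, and Mad1l1 at −0.96 in KO and 0.69 in Het, the last resting on the high footprint value of Het library 2. The 2 assays have their own library totals, so a ratio of 0 has no fixed meaning and only the order among genes is read.

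Among pathway genes in KO against Het mRNA, 3 of 7 effector, silencing and Spindly genes rose, namely Trip13, an ATPase that takes the checkpoint complex apart (log2 1.44, limma adjusted p = 0.0241), Zw10 (1.42) and Spdl1 (1.13). In the kinetochore network 2 of 9 rose, Zwint (2.86, limma adjusted p = 0.00119) and Spc25 (1.28). Of 12 kinases, shugoshins and partners, Birc5 (2.02) and Aurkb (1.90), both of the chromosomal passenger complex, rose. Of 17 genes of the anaphase-promoting complex and its partners, Ube2c (1.66), Anapc11 (limma adjusted p = 0.0213), Anapc4 (1.39) and Anapc15 (1.39) rose. None of these lists held a gene that fell. Over all genes 18.9% rose and 0.62% fell, and nothing particular to the lists is read from their counts. By footprints Spdl1 rose, at 182 ± 60.2 FPKM in KO and 18.9 ± 4.46 FPKM in Het (log2 3.18, limma adjusted p = 0.0168), and so did Anapc4, at 138 ± 40.3 FPKM in KO and 26.3 ± 10.5 FPKM in Het (2.37, limma adjusted p = 0.0401). The median log2 change of mRNA was 0.41, 0.30, −0.38 and 0.56 in the 4 lists in this order, and 0.14 over all genes.

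Of the 17 follicle-cell markers 3 were above 0 in KO and 5 in Het footprints, and 9 in KO and 9 in Het mRNA. They summed to 412 to 556 FPKM in KO and 240 to 419 FPKM in Het footprints, and to 268 to 310 FPKM in KO and 357 to 442 FPKM in Het mRNA. Most of these sums was Serpine2. The other 16 markers summed to 32.0 to 61.9 FPKM in KO (median 38.2) and 17.1 to 65.4 FPKM in Het footprints (median 60.6). In mRNA they summed to 10.76 to 10.78 FPKM in KO and 14.4 to 15.5 FPKM in Het. Amh, Foxl2, Hsd17b1, Krt18 and Cd44 were at 0 in all 10 libraries. The 10 blood and immune markers summed to 0 to 3.64 FPKM in KO and 0 to 20.4 FPKM in Het footprints, and to 0.105 to 16.5 FPKM in KO and 0 to 0.099 FPKM in Het mRNA, with the hemoglobin markers at 0 throughout. The 5 somatic proliferation markers summed to 774 to 1591 FPKM in KO and 1306 to 2341 FPKM in Het footprints, and to 268 to 349 FPKM in KO and 498 to 611 FPKM in Het mRNA. The part of the follicle-cell, immune and proliferation markers in these differences was not tested, and in such libraries fewer cells of a type and less RNA per cell cannot be told apart.

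Set beside each other, the 4 genes with lower mean footprints in MII than in FGO (Bub1, Bub3, Mad1l1 and Ttk) were those with mRNA above Het in both KO libraries, and the 2 with higher footprints in MII (Bub1b and Mad2l1) had lower mean mRNA in KO than in Het. For Mad1l1 the mRNA side of this depends on scaling, as given above, and no test joins the comparisons. For Bub3 and Ttk the footprint difference was less than 2-fold as deposited, and the stages overlapped widely. Of all genes tested, 38.9% had mRNA above Het in both KO libraries and 22% had it below in both. Mad2l1 showed the latter arrangement and Bub1b did not, since its genotypes overlapped. A lower mean is a looser condition. The log2 mRNA change of Anapc1, −0.0093, already stood at percentile 43.6 of all genes, so lower values were common. The share of all genes that combine either arrangement with a given stage difference was not counted. Nothing particular to the checkpoint genes is therefore read from this match. The 2 footprint tables were made separately, so levels are not compared across them.

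Poly(A) tails were given for few of the 6 genes in MII oocytes. The deposited value is 1 length per gene and library, 0 standing for no value, and the reads behind it are unknown. All 6 genes had a value in the FGO library, which held values for 6353 genes. The 2 KO libraries, the Het library and the WT MII library held values for 867, 1416, 598 and 229 genes. Bub1, Mad1l1 and Mad2l1 had no value in any MII library. No test was made, since 3 of the 4 groups had 1 library.

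Bub1b was the only one of the 6 with a tail value in every library. Its tail was 79.7 and 92.7 nt in the KO libraries, 104 nt in the Het library and 58.1 nt in WT MII, against 42.7 nt in FGO, so all 4 MII libraries exceeded the FGO library. In percentiles of each library's own genes these were 85.8, 87.4, 76.4 and 66.4 in MII against 18.5 in FGO. The median over all genes was 42.4 and 43.1 nt in KO, 73.4 nt in Het, 47.5 nt in WT MII and 54.1 nt in FGO. Among genes with both values, Bub1b in Het exceeded FGO by 61.0 nt, at percentile 81.9, where the median difference was 20.5 nt. In WT MII it exceeded FGO by 15.4 nt, at percentile 75.4 (median −7.6 nt). The KO mean exceeded FGO by 43.5 nt, at percentile 91.7 (median −15.4 nt). The share of genes with all 4 MII libraries above FGO was not counted. The Bub1b tail in the mean of the KO libraries was 17.5 nt shorter than in Het, at percentile 35.3 of 272 genes with both values, whose median difference was −9.21 nt. Both KO tails were longer than the WT MII tail of 58.1 nt. The authors' merged columns list 88.5 nt for KO and 88.4 nt for WT and Het, so the direction depends on the control library used.

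Bub3 showed the opposite pattern to Bub1b. Its tail was 26.0 and 40.6 nt in the KO libraries and 16.9 nt in the Het library, against 67.2 nt in FGO, and it had no value in WT MII. The Het value was at percentile 0.167 of its library and the FGO value at percentile 82.8 of its own. The difference between Het MII and FGO was −50.4 nt, at percentile 0.862 of 580 genes, where the median difference was 20.5 nt. The mean of the KO libraries exceeded Het by 16.5 nt, at percentile 80.5 of 272 genes, and the 2 KO libraries themselves differed by 14.6 nt.

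Ttk had a tail of 39.3 nt in KO library 2 and of 48.4 nt in FGO. The FGO tails of the other 3 genes were 63.8 nt for Mad1l1, 46.3 nt for Mad2l1 and 45.1 nt for Bub1. In FGO the 6 genes therefore spanned 42.7 to 67.2 nt, with Bub3 and Mad1l1 above the library's median of 54.1 nt and the other 4 below it. In the authors' deposited table the merged KO column lists 88.5 nt for Bub1b, 33.3 nt for Bub3 and 38.7 nt for Ttk, and the merged WT and Het column 88.4 nt for Bub1b and 16.9 nt for Bub3.

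**Figure D4:**
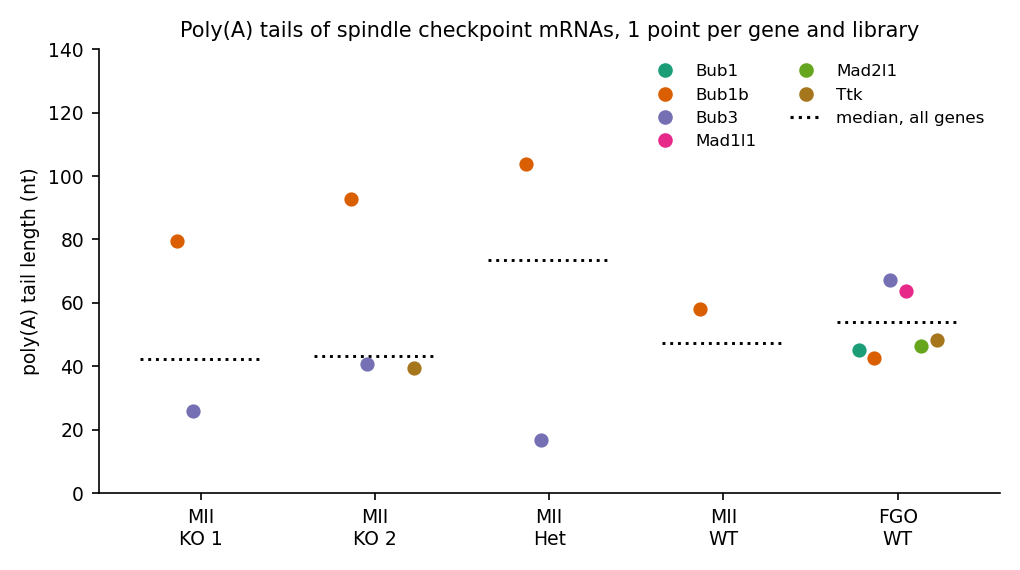
Poly(A) tail length in nucleotides per gene in the Btg4 KO (2 libraries), Het and WT MII libraries and the FGO library; points are genes with a value and dotted lines the median of all genes with a value. Bub1b lies above the median in all 4 MII libraries and below it in FGO, and Bub3 lies below the median in the KO and Het libraries and above it in FGO.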

How the data were processed

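The authors deposited footprints and mRNA as FPKM, and tails as 1 length in nucleotides per gene and library, with 0 for no value. Per the submitters' processing notes, STAR 2.5.3a, Cufflinks 2.2.1, Bowtie2 2.2.2, Trim Galore 0.4.2 and cutadapt 1.14 were used and hg19 and mm9 were the builds, without saying for what. The sources used here do not say how tails were called, and for mRNA and tails the depth per library is unknown. Of 105 samples 53 were used; the other 52 were not analysed here. Exact repeats of rows in the Btg4 table, 231 in all, were dropped.

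KO against Het was fitted on log2(FPKM + 1) with lmFit and eBayes (trend, two-sided) of limma 3.58.1 under R 4.3.3, so folds of low genes are understated. Genes averaging under 1 FPKM were left out, and p-values were Benjamini-Hochberg adjusted over all genes tested, with a threshold of 0.05. Single-oocyte values are ratios of mean FPKM + 1. Whole reads were recovered from low footprint values as multiples of the value of 1 read (tolerance 0.03 reads, below 12 reads), which worked for Bub1 and Bub3 and not for the other 4 genes. The test was tested on simulated data.

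The genes named are the 6, Btg4, up to 4 per pathway list with the smallest p (in single oocytes, the largest ratios) and the most alike by Spearman's rho. The 6 genes and the lists were chosen with earlier results of these data known. Footprint libraries with the same replicate number deviated together (correlations of 0.255, 0.422 and 0.162, against −0.319 to 0.0977 for different numbers). So did mRNA libraries (0.627). The labels do not say what a shared number stands for, so the fits in the Results did not pair libraries by it. Fits with the number as a block are given in the last section, and their mRNA calls differ from the unpaired ones.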

Additional observations from a re-analysis of the deposited data

How the results depend on the processing

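Of the 6 genes, 1 was called in footprints with libraries scaled to equal FPKM sums, an alternative chosen after seeing the data, against 0 as deposited, and 0 to 1 with a library left out. In mRNA the count of 2 fell to 1 with a pseudocount of 0.1, no filter, median scaling, quantile normalization, eBayes without trend or equal FPKM sums, and was 1 to 2 with a library left out; where that left 1 sample in an arm, it was assumed to vary like the others. The replicate block gave 5 in mRNA, 3 higher and 2 lower, with 2 pairs that share only a number (limma adjusted p = 0.0036 for Ttk, 0.0144 for Bub3, 0.0127 for Bub1b and 0.0183 for Mad2l1, the last 2 lower in KO, with Bub1 called as before; correlation of deviations 0.627). In footprints the blocked fit changed no call among the 6 (limma adjusted p = 0.0563 for Bub1). The count past 2-fold in single oocytes was 4, and 3 to 4 with an oocyte left out, 6 with median scaling (Bub3 and Ttk added), 5 with medians over oocytes (Bub3 added), and 3 without MII oocytes 2 and 4 or with equal FPKM sums (Mad1l1 lost). Mad1l1 mRNA reversed to −0.055 with median scaling and −0.12 with quantile normalization. With a library left out, Ttk footprints ran from −0.24 to 0.91, and footprint efficiency from −0.077 to 0.79 for Bub1 and from −0.073 to 0.86 for Bub1b. Over all genes, 302 calls in footprints became 199 with a pseudocount of 0.1, 157 without a filter and 173 with quantile normalization, and 0 by limma without any 1 KO library, where 1199 to 1315 genes had an unadjusted p under 0.05 and Btg4 an adjusted p of 0.0533 to 0.0662. In mRNA 1732 calls became 560 without a filter and 4586 with the block (3033 higher, 1553 lower). In efficiency 96 became 39 without a filter, 179 with median scaling (76.0% higher, against 65.6%) and 49 with the block, and 0 without any 1 mRNA library (614 to 714 at an unadjusted p under 0.05). The cause of these shifts was not tested. Footprint reads of single genes, and tail values held by few genes in MII, limit the precision.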
